A study of Mus musculus with 12 samples.

Results

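The 10 cytosolic heat shock genes described here are Hspa1a, Hspa1b, Hspa8, Hspa4, Hsp90aa1, Hsp90ab1, Hsph1, Dnajb1, Hspb1 and Hsf1. They were taken by symbol from a table of 43279 genes, and all 10 symbols were found. The list was drawn up with the genotype differences of these libraries known, so the members' differences between genotypes are given as a description. No exact p-value is given for a member. Calls of members are listed beside the share of all genes called, and nothing is read from them.

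The libraries are RNA-seq of polyadenylated RNA from sorted bone-marrow cells, with 1000 cells sorted per mouse and 1 mouse per library. The animals were 5 adult naive Osmr-/- mice (Osmr-/- 1, 2, 3, 5 and 6), and the controls were 6 naive wild-type C57BL/6 mice (WT 1 to 6). Osmr encodes the receptor chain for oncostatin M, and the series compares hematopoietic stem cells of adult mice with and without it. The sex, the exact age and the strain background of the Osmr-/- mice were not given in the sources used here, and the sixth Osmr-/- sample, numbered 4, was not analysed here. The sort took lineage-negative, KIT+, SCA1+, FLT3- and CD48- cells from crushed femur, tibias and ilium after staining on ice, a gate that holds both long-term and short-term stem cells. Because each library is a bulk of cells, fewer cells of a type and less RNA per cell cannot be told apart.

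Heat shock proteins are molecular chaperones that bind unfolded or partly folded proteins, and HSP70 and HSP90 release them in cycles driven by ATP. HSP70 proteins take the client from J-domain proteins such as DNAJB1, are reset by nucleotide exchange factors such as HSPH1 and HSPA4, and pass part of their clients to HSP90. The factor HSF1 switches on the inducible members under heat or proteotoxic stress by binding heat shock elements, which are inverted repeats of the unit GAA, while HSPA8 and HSP90AB1 are made constitutively. In hematopoietic stem cells, HSF1 and chaperone activity are known as part of the control of protein quality.

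Library totals ran from 9.50 to 11.2 M reads in Osmr-/- and from 9.89 to 22.1 M reads in WT. Values are normalised read counts, which are gene counts divided by a size factor for each library. The stem cell genes Kit, Ly6a, Hlf and Mecom were detected in every library, with mean normalised counts of 4455, 6893, 4737 and 1521 in Osmr-/- and of 3740, 5376, 5118 and 1280 in WT. Procr and Slamf1, also of the gate's list, averaged 323 and 139 in Osmr-/- and 543 and 297 in WT, and Meis1 averaged 4657 in Osmr-/- and 3241 in WT, without overlap. Transcripts of Cd48 and Flt3, whose proteins the gate excludes, were read in every library. Of the lymphocyte markers, Pax5, Cd3e, Cd8a and Il7r stayed under 10 in every library, while Vpreb1 and Nkg7 were above 10 in all 11. Of the endothelial and stromal markers, Lepr, Pdgfra and Col1a1 stayed under 10 and Pecam1 was above 10 in all 11. Osmr had 4 reads in all Osmr-/- libraries together and 13 in all WT libraries, too few to check the genotype labels. Earlier results of these data set the libraries numbered 1 to 3 apart from those numbered 4 to 6, and with these number sets as a covariate 337 genes passed an adjusted p of 0.05 in limma, where 3 passed without. The labels name no batch, so the sets are defined from the data, and values within each stand beside the pooled ones.

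Of the inducible HSP70 genes Hspa1a and Hspa1b, whose proteins are made after heat and other stress, Hspa1b was higher in every Osmr-/- library, while for Hspa1a only those numbered 1 to 3 lay above every WT library. They form a pair on chromosome 17 of mm10, Hspa1b at 34956436 to 34959238 and Hspa1a at 34969190 to 34972156, both on the minus strand. RefSeq windows from 250 bases before to 50 after the start differed between the pair at 4 of 300 bases. The 150 bases before each start are printed to show how alike the pair is and because each window holds 1 heat shock element, with the element in capitals (build GRCm38.p6, minus strand, 5′ to 3′).
Hspa1a chr17:34972157-34972306: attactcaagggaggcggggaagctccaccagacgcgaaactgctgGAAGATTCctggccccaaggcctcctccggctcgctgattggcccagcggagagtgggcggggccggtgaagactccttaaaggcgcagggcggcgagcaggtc
Hspa1b chr17:34959239-34959388: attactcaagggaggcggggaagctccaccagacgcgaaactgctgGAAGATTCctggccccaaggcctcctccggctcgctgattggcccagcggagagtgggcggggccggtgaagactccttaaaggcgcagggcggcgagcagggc

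Hspa1b had normalised counts of 27.2, 104, 214, 46.3 and 29.3 in Osmr-/- 1, 2, 3, 5 and 6, against 3.12, 0, 0, 3.88, 14.1 and 0 in WT 1 to 6. Every Osmr-/- library lay above every WT library, and 3 WT libraries had no read. No overlap with Osmr-/- above was seen in 1 of the 8 members fitted and in 1.09% of all genes fitted, and with Osmr-/- below in 0 members and 1.42% of genes. The reads summed to 353 in Osmr-/- and 25 in WT, a ratio of 23.1 after correction for depth, with a 95% counting interval of 15.4 to 36.1. The interval is exact (Clopper-Pearson), pools the reads of all mice and covers counting error only, not the spread between mice. Even counting error may be understated, because reads amplified by PCR carry no molecular identifiers here and repeat the same molecules. Of the 353 Osmr-/- reads, 166 came from Osmr-/- 3. The log2 difference of normalised counts with 1 added was 4.58 ± 0.965 (SE), which was 5.75 in the libraries numbered 1 to 3 and 3.17 in those numbered 4 to 6. It was 4.13 without Osmr-/- 3, the highest library. Its size depended on the scale, at 2.52 with a pseudocount of 10 and 1.41 on the authors' regularised log2 scale. The gene passed the filter of at least 10 normalised counts in 5 libraries through its 5 Osmr-/- libraries and WT 5.

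Hspa1a had 40.8, 42.6, 27.1, 0 and 3.90 in Osmr-/- 1, 2, 3, 5 and 6, against 0, 1.68, 0, 0, 10.1 and 0 in WT 1 to 6. The genotypes overlapped, since Osmr-/- 5 was at 0 while WT 5 was the highest of its group. Hspa1a reached 10 normalised counts in 4 libraries and was therefore not among the genes fitted. Its reads summed to 97 in Osmr-/- and 12 in WT, a depth-corrected ratio of 13.2 with a 95% exact counting interval of 7.23 to 26.4. This interval too leaves out the spread between mice, and 10 of the 12 WT reads came from WT 5. The log2 difference was 4.74 among libraries 1 to 3 and -0.01 among libraries 4 to 6. The summed count of both genes was 107 ± 86.9 in Osmr-/- (SD, n = 5) and 5.48 ± 9.31 in WT (SD, n = 6), with ranges of 33.2 to 241 and of 0 to 24.2.

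Reads of the Hspa1a and Hspa1b pair cannot be assigned with certainty. Of all stretches of 50 bases in the Hspa1a transcript, 66.3% also occurred in a transcript of another gene, and 62.3% of those in Hspa1b did, mostly in the other member of the pair. In addition, exons of Gm20481 on the opposite strand cover 19.0% of the exon bases of Hspa1a, and the strand setting of the counting was not given in the sources used here. Gm20481 itself had 13 reads in Osmr-/- and 5 in WT. The summed count of the pair is free of a split between its members, but not of reads set aside because they match both.

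Other features differed between libraries along with Hspa1b. Osmr-/- 3, where Hspa1b was highest, had 10780 normalised counts of the neutrophil gene S100a8 and 7277 of S100a9, where the other Osmr-/- libraries had at most 346 and 125, and WT libraries at most 180 and 121. The summed level of the 9 granulocyte and monocyte markers ran from 10490 to 26116 in Osmr-/- and from 8938 to 17201 in WT, with Ly6g under 10 in every library. The summed level of the 9 erythroid markers ran from 2190 to 4461 in Osmr-/- and from 3267 to 27129 in WT, with the mature-cell gene Alas2 reaching at most 1.95 in Osmr-/- and 17.9 in WT. Of these markers Klf1 and Rhd were below WT without overlap, while Hbb-bt was above WT without overlap, at 707 to 1567 in Osmr-/- and 150 to 697 in WT. The number of genes with a read did not overlap either, at 15651 to 16348 in Osmr-/- libraries and 16508 to 18797 in WT libraries. The part of these cells, and of the number of genes detected, in the Hspa1b difference was not tested. The Osmr-/- libraries other than Osmr-/- 3 ran from 27.2 to 104 for Hspa1b.

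**Figure D1:**
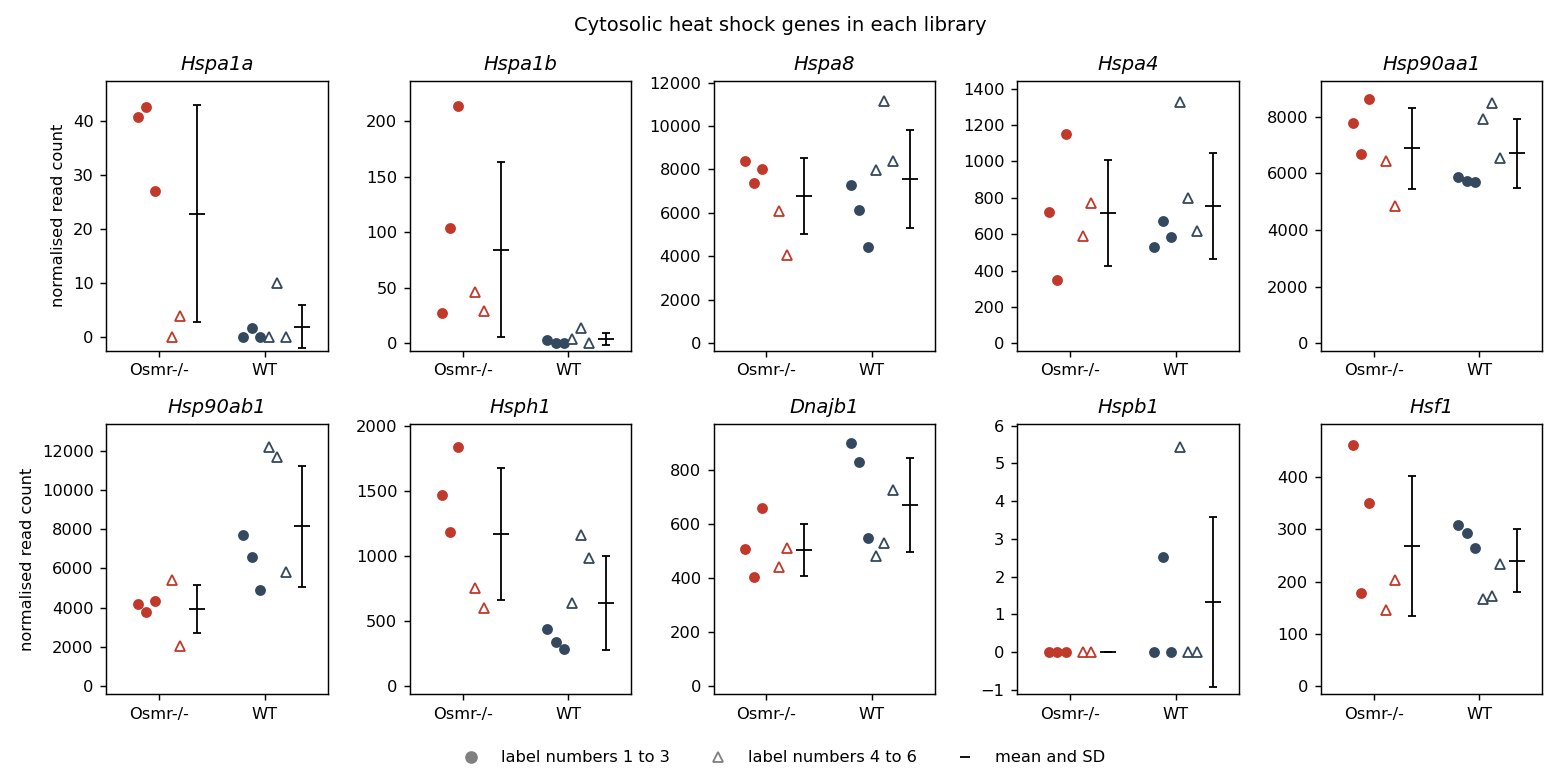
Normalised read counts of the 10 heat shock genes by library, Osmr-/- in red and WT in dark blue, each panel with its own linear axis. Filled circles are libraries numbered 1 to 3 and open triangles those numbered 4 to 6, and bars give the mean and SD; all 5 Osmr-/- libraries lie above all 6 WT libraries for Hspa1b, and Hspb1 is at 0 in every Osmr-/- library.

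The constitutive HSP90 gene Hsp90ab1 (chromosome 17, 45567775 to 45573271, minus strand), which encodes the beta form of the cytosolic chaperone, was lower in the Osmr-/- libraries, while the inducible alpha gene Hsp90aa1 was close in both genotypes. Hsp90ab1 had normalised counts of 4195, 3769, 4338, 5434 and 2059 in Osmr-/- 1, 2, 3, 5 and 6, against 7711, 6596, 4905, 12198, 11691 and 5838 in WT 1 to 6. Of the Osmr-/- libraries only Osmr-/- 5 lay above the lowest WT library, WT 3. The means were 3959 ± 1227 (SD, n = 5) in Osmr-/- and 8157 ± 3079 (SD, n = 6) in WT. The log2 difference was -1.03 ± 0.293 (SE), with -0.62 among libraries 1 to 3 and -1.49 among libraries 4 to 6. Leaving out single libraries gave values from -1.16 to -0.81.

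Hsp90aa1, on chromosome 12 (110690605 to 110702728, minus strand), had 7775, 6696, 8630, 6448 and 4857 in Osmr-/- 1, 2, 3, 5 and 6, against 5861, 5743, 5682, 7926, 8490 and 6532 in WT 1 to 6. The groups overlapped and their means were 6881 ± 1430 (SD, n = 5) in Osmr-/- and 6706 ± 1216 (SD, n = 6) in WT. The log2 difference was 0.03 ± 0.207 (SE).

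The balance of the HSP90 pair did not overlap between genotypes. Per kilobase of annotated exon, the ratio of Hsp90ab1 to Hsp90aa1 was 0.707, 0.738, 0.659, 1.10 and 0.556 in Osmr-/- 1, 2, 3, 5 and 6, against 1.72, 1.51, 1.13, 2.02, 1.80 and 1.17 in WT 1 to 6. Every Osmr-/- library lay below every WT library, although Osmr-/- 5 and WT 3 were close. The log2 difference of the ratio was -1.06 over all libraries, -1.03 among libraries 1 to 3 and -1.05 among libraries 4 to 6. This ratio was chosen after its values were seen. Hsp90aa1 shared 58.5% of its stretches of 50 bases with transcripts of other genes, mainly processed copies, and Hsp90ab1 shared 4.49%. The copies themselves had few reads, with means of 28.8 in Osmr-/- and 29.8 in WT for Gm12346 and of 46.5 in Osmr-/- and 73.3 in WT for Gm5844.

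**Figure D2:**
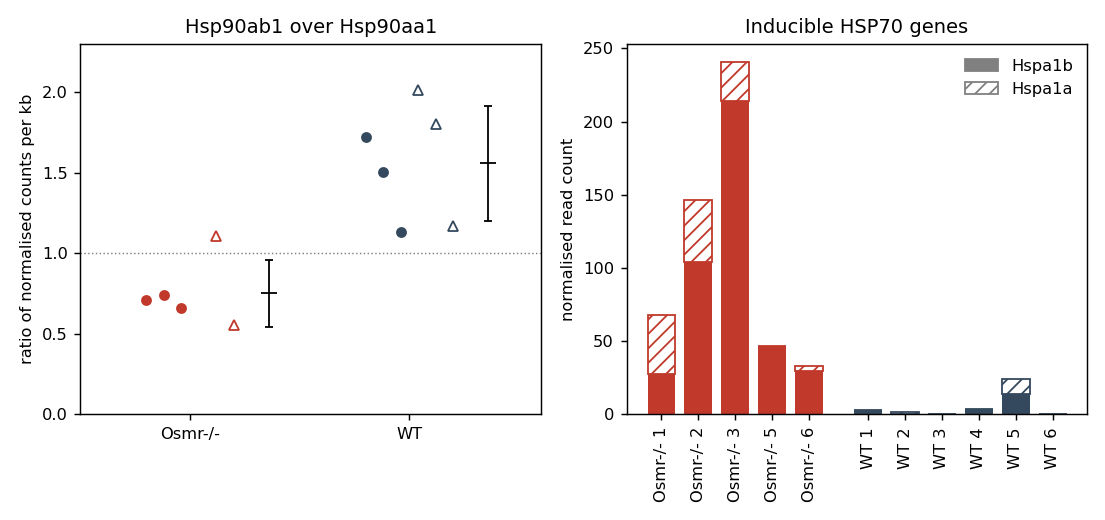
Left, the ratio of Hsp90ab1 to Hsp90aa1 in normalised counts per kilobase of exon for each library, with mean and SD, filled circles for numbers 1 to 3 and open triangles for numbers 4 to 6. Right, normalised counts of Hspa1b (solid) and Hspa1a (hatched, stacked) by library; the ratio is at most 1.10 in Osmr-/- and at least 1.13 in WT, and the stacked counts are at least 33.2 in Osmr-/- and at most 24.2 in WT.

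Hspa8, the constitutive HSP70 gene on chromosome 9 (40800984 to 40810087, plus strand), did not separate the genotypes over all libraries. It had 8400, 7364, 8014, 6098 and 4081 in Osmr-/- 1, 2, 3, 5 and 6, against 7265, 6140, 4448, 7977, 11142 and 8370 in WT 1 to 6. The log2 difference was -0.14 ± 0.259 (SE), and it turned to 0.03 without Osmr-/- 6. Within the number sets the values did not overlap and went opposite ways, though the share of all genes that do so was not computed. In numbers 1 to 3 the Osmr-/- libraries lay above the WT libraries, at 7364 to 8400 against 4448 to 7265, with a log2 difference of 0.44. In numbers 4 to 6 they lay below, at 4081 to 6098 against 7977 to 11142, with a log2 difference of -0.86.

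Hsp90aa1 had the same crossed arrangement. In numbers 1 to 3 it ran from 6696 to 8630 in Osmr-/- and from 5682 to 5861 in WT. In numbers 4 to 6 it ran from 4857 to 6448 in Osmr-/- and from 6532 to 8490 in WT. The log2 differences were 0.41 and -0.44, and the difference between the sets was not tested for either gene. The sets hold 3 Osmr-/- and 3 WT libraries for the lower numbers and 2 Osmr-/- and 3 WT libraries for the upper ones. Groups this small can separate by chance.

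The HSP110 genes act as nucleotide exchange factors for HSP70, and their 2 members listed here differed. Hsph1, the heat-inducible one (chromosome 5, 149614287 to 149636376, minus strand), had 1469, 1184, 1842, 760 and 600 in Osmr-/- 1, 2, 3, 5 and 6, against 440, 342, 288, 638, 1165 and 986 in WT 1 to 6. The Osmr-/- libraries numbered 1 to 3 were the highest of all 11, and the WT libraries numbered 1 to 3 the lowest. The pooled log2 difference was 0.94 ± 0.395 (SE), made up of 2.07 among libraries 1 to 3 and -0.42 among libraries 4 to 6. Hspa4 had 722, 350, 1152, 590 and 773 in Osmr-/- 1, 2, 3, 5 and 6, against 528, 674, 585, 1325, 798 and 618 in WT 1 to 6. Its groups overlapped, with a log2 difference of -0.10 ± 0.314 (SE) that turned to 0.13 without Osmr-/- 2 and was also above 0 without WT 4. No stretch of 50 bases of either transcript occurred in another gene.

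The RefSeq window of Hsph1 is shown because it held the most heat shock elements among the members with a window. Its 150 bases before the start carry 1 element, in capitals (build GRCm38.p6, minus strand, 5′ to 3′).
Hsph1 chr5:149636337-149636486: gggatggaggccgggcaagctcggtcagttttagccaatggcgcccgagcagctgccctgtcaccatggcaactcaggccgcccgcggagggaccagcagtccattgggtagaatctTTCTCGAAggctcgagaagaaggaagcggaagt
From base 36 after the start it also carries TTCTGGAAAGTTC, in which 3 units alternate and 2 elements overlap.

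Dnajb1 encodes a J-domain protein that delivers clients to HSP70 (chromosome 8, 83608193 to 83612653, plus strand). It had 509, 403, 659, 444 and 512 in Osmr-/- 1, 2, 3, 5 and 6, against 899, 832, 550, 484, 531 and 727 in WT 1 to 6. The groups overlapped, and the log2 difference of -0.39 ± 0.245 (SE) was below 0 in both number sets, at -0.54 and -0.26. The differences of Dnajb1 and Hspa1b, both stress-inducible, thus had opposite signs. Hsf1, the transcription factor of the response, is regulated largely at the protein level. Its mRNA was at 460, 179, 351, 146 and 202 in Osmr-/- 1, 2, 3, 5 and 6, against 309, 292, 264, 167, 172 and 233 in WT 1 to 6. The log2 difference of Hsf1 was 0.06 ± 0.354 (SE) and turned to -0.16 without Osmr-/- 1.

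The small heat shock protein gene Hspb1 was barely detected. It had 0 reads in all Osmr-/- libraries, against 10 reads in WT, which came from WT 2 at 2.52 and WT 4 at 5.43 normalised counts. A count of 0 allows 3 reads, which is 2.93 to 3.87 normalised counts per Osmr-/- library, and 4 of the 6 WT libraries were at 0 as well, so no fold is given. Of its stretches of 50 bases, 51.6% also occurred in a pseudogene transcript. Its window is printed because it carries 2 elements beside a gene near 0 (build GRCm38.p6, plus strand, 5′ to 3′).
Hspb1 chr5:135887769-135887918: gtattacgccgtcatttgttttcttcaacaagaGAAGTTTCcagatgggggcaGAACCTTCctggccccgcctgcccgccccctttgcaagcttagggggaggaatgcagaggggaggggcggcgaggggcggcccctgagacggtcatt

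Among all members, 6 had a RefSeq promoter window, which were Hspa1a, Hspa1b, Hsph1, Hspb1, Dnajb1 and Hspa4. The element was searched as GAANNTTC or TTCNNGAA, both of which read the same on either strand, over the whole window from 250 bases before to 50 after the start. It was found in 4 of the 6 members and not in Dnajb1 and Hspa4. Of 32851 windows in the table, 15.1% held it, and counted by gene 4587 of 27025 did. With a further inverted unit at the same spacing, making 3 alternating units, the motif was held by 1 member, Hsph1. It was held by 0.603% of windows, and counted by gene by 179 of 27025. A match describes these letters only.

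**Figure D3:**
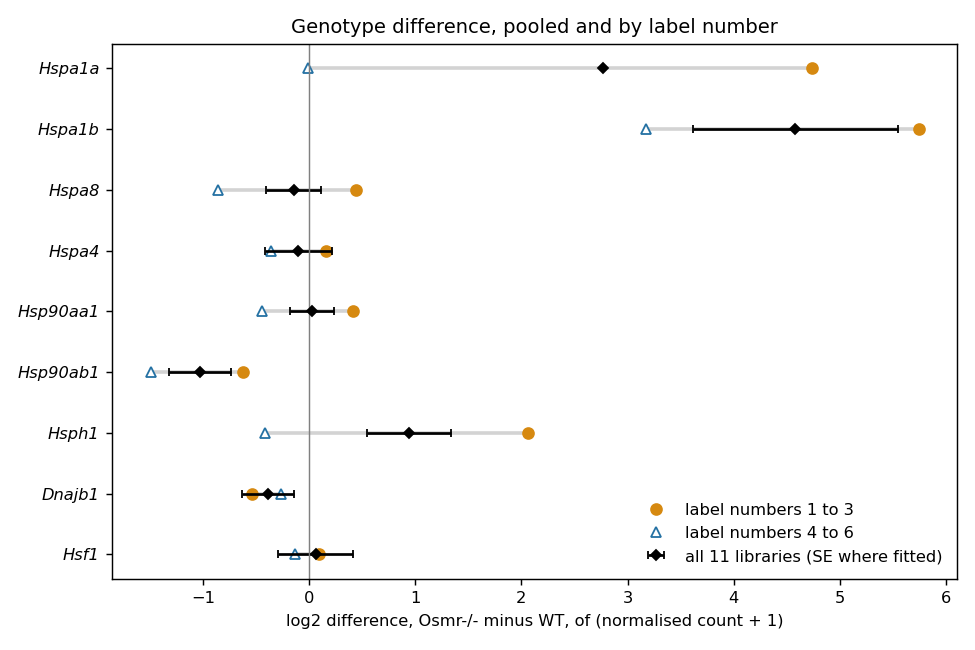
Log2 difference, Osmr-/- minus WT, of the normalised count with 1 added for 9 members, as diamonds for all libraries with the standard error where the gene was fitted, orange circles for numbers 1 to 3 and blue open triangles for numbers 4 to 6. Hspb1 is left out because it had 0 reads in Osmr-/-; Hspa1b lies above 0 and Hsp90ab1 and Dnajb1 below 0 in both sets, Hspa1a is at 4.74 in numbers 1 to 3 and -0.01 in numbers 4 to 6, and the sets lie on opposite sides of 0 for Hspa8, Hspa4, Hsp90aa1, Hsph1 and Hsf1.

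Levels of different genes were compared as normalised counts per kilobase of annotated exon. In Osmr-/- the order began with Hsp90aa1 at 1750 ± 364, Hspa8 at 1579 ± 407 and Hsp90ab1 at 1320 ± 409 (SD, n = 5). In WT it began with Hsp90ab1 at 2720 ± 1027, Hspa8 at 1757 ± 525 and Hsp90aa1 at 1706 ± 309 (SD, n = 6). Hsp90ab1 exceeded Hspa8 in 1 of 5 Osmr-/- libraries and in 6 of 6 WT libraries. Hspa8 and Hsp90aa1 did not differ beyond their spread in WT, where Hspa8 was the higher in 3 of 6 libraries. With the longest transcript in place of all exons, the Osmr-/- order began with Hspa8 at 2151 and Hsp90aa1 at 2097, and Hsp90ab1 exceeded Hspa8 in 1 of 5 Osmr-/- and in 5 of 6 WT libraries.

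The next genes were far below these abundant ones. In Osmr-/- they were Hsph1 at 161 ± 70.0, Dnajb1 at 158 ± 30.3 and Hspa4 at 130 ± 53.0 per kilobase (SD, n = 5), and in WT Dnajb1 at 209 ± 54.2, Hspa4 at 137 ± 53.2 and Hsph1 at 88.5 ± 49.5 (SD, n = 6). Neighbours among these overlapped in both genotypes. Hsf1 followed at 37.7 ± 18.7 in Osmr-/- (SD, n = 5) and 33.7 ± 8.47 in WT (SD, n = 6). With the longest transcript Hsf1 was at 85.4 in Osmr-/- and 76.4 in WT, and Hsph1 lay above it in 5 of 5 Osmr-/- and 3 of 6 WT libraries. Hspa1b, Hspa1a and Hspb1 were last, at 30.0, 7.71 and 0 per kilobase in Osmr-/- and 1.26, 0.661 and 1.29 in WT. Hspa8 shared 74.8% of its stretches of 50 bases with other transcripts, and its level, like those of Hsp90aa1, Hspa1a and Hspa1b, is uncertain for that reason. Over all 10 members, 0.131% to 0.206% of a library's reads fell on these genes in Osmr-/- and 0.131% to 0.341% in WT.

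Some members also varied together from mouse to mouse, though the share of all gene pairs that do so was not computed. After subtracting each genotype's mean from the log2 values of the 8 fitted members, 21 of 28 pairs had a Pearson r above 0 over the 11 libraries, with a median of 0.29. Hspa8 and Hsph1 were the closest pair at r = 0.92 and Spearman's rho = 0.95, and r was 0.76 with the number-set means also subtracted. Hspa8 and Hsp90aa1 had r = 0.87 and rho = 0.90, with r = 0.60 within the sets. Hsp90aa1 and Hsph1 fell from r = 0.85 to 0.45 within the sets, and Hsp90ab1 and Hsph1 from 0.53 to 0.26. Hsp90aa1 and Hsp90ab1 had r = 0.79 and rho = 0.80, with r = 0.84 within the sets. Dnajb1 and Hsf1 were closest to each other over all libraries, at r = 0.67 and rho = 0.70, with r = 0.64 within the sets. Dnajb1 and Hsph1 had r = -0.05 over all libraries and r = 0.65 within the sets. These coefficients are a description, since the libraries share the number sets and their size factors and are few.

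The genes whose pattern was most like the mean of the standardised members, over the 11 libraries after subtracting genotype means, were Ptpn6 at r = 0.94, Mia3 at 0.92, Zfp644 at 0.92, Pla2g15 at 0.90 and Cdk11b at 0.89. Ptpn6 encodes the phosphatase SHP-1 and had mean normalised counts of 833 in Osmr-/- and 1119 in WT. With number-set means also subtracted, these coefficients ran from 0.86 for Cdk11b to 0.92 for Zfp644.

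**Figure D4:**
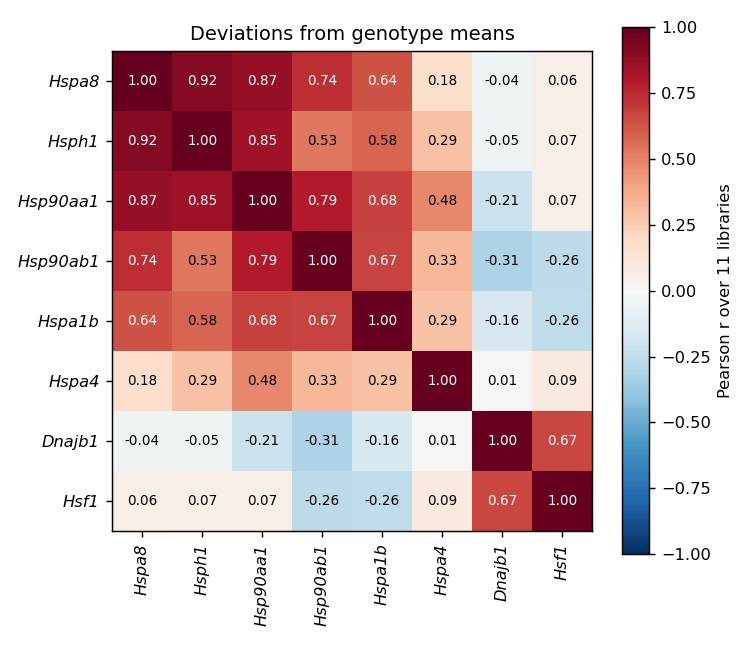
Pearson correlation between the 8 fitted members over 11 libraries, computed on log2 of the normalised count with 1 added after subtracting each genotype's mean; colour runs from blue at -1 to red at 1. Hspa8, Hsph1, Hsp90aa1, Hsp90ab1 and Hspa1b form a block with coefficients from 0.53 to 0.92, and Dnajb1 and Hsf1 pair with each other at 0.67. Number-set means were not subtracted here.

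Counts of calls are given with their background over the whole table. The fit across 13358 genes with limma placed 3 genes past an adjusted p of 0.05, which is 0.0225% of those tested, 0.00749% higher and 0.015% lower. Of the 8 members fitted 0 were among them by limma, and 3, Hspa1b, Hsp90ab1 and Hsph1, had an unadjusted p under 0.05, as 18% of all genes did. On the recovered reads, edgeR called 0 of 8 members, where it called 0.015% of genes, and DESeq2 called Hspa1b higher and Hsp90ab1 lower, where it called 4.27%. The authors' deposited table lists the same 2 members at an adjusted p under 0.05, where 4.46% of its genes are. In the authors' deposited table the log2 fold change of Osmr-/- over WT was 1.98 ± 0.474 (SE) for Hspa1b and -0.94 ± 0.284 (SE) for Hsp90ab1. With the number sets as a covariate limma called Hspa1b, where it called 2.52% of genes. One fitted member, Hspa1b, had no overlap between genotypes, as did 2.52% of the genes fitted. Nothing is read from these counts, since the members were chosen with this contrast known. The median log2 difference of the 8 members was -0.04, beside -0.05 over all genes tested.

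Other genes of the chaperone network came from 8 lists of 117 genes, of which 104 were tested. In limma's fit across all genes 0 of the 104 passed an adjusted p of 0.05 in either direction, against the background of 0.0225%, and 10 higher and 23 lower had an unadjusted p under 0.05. Of 103 with an adjusted p in the authors' deposited table, 2 were higher and 9 lower at 0.05, beside 1.67% and 2.79% of all its genes. Over all 13358 genes tested, 1002 higher and 1399 lower had an unadjusted p under 0.05 in limma. The log2 difference was above 0 for 36 of the 104 genes and below 0 for 68, with a median of -0.23, beside 6254 above, 7104 below and a median of -0.05 over all genes tested. These figures over all genes are the background for each list that follows.

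Of the HSP90 co-chaperone genes, 7 lay above 0 and 16 below. Of the 23 tested 0 passed in limma, where 3 higher and 8 lower had an unadjusted p under 0.05. The authors' deposited table lists 0 as higher and 6 as lower. Ahsa1, which stimulates the ATPase of HSP90, had 634 ± 274 in Osmr-/- (SD, n = 5) and 1445 ± 364 in WT (SD, n = 6), with a log2 difference of -1.23 and an adjusted p of 0.0801 by limma. It lay between -1.27 and -1.25 in both number sets. Pih1d1 and Ruvbl1, both of the R2TP complex that works with HSP90, had -1.08 and -0.99, and Nudc, a co-chaperone of the dynein pathway, had -1.16. The median of the list was -0.22.

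The genes of HSP70 partners lay on both sides of 0. Of 21 tested 0 passed in limma, with 2 higher and 4 lower at an unadjusted p under 0.05, and the authors' deposited table lists 1 as higher and 2 as lower. St13, which encodes the HSP70-stabilising protein HIP, had 3141 ± 447 in Osmr-/- (SD, n = 5) and 1842 ± 233 in WT (SD, n = 6), without overlap between genotypes. Its log2 difference was 0.77, with an adjusted p of 0.0824 by limma. The J-domain gene Dnajc7 had -0.94 and the exchange factor gene Bag5 had -1.20. The list's median was -0.06.

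In the chaperonin and prefoldin list, whose complexes fold actin and tubulin, 0 of 14 passed in limma, 1 higher and 4 lower had an unadjusted p under 0.05, and the authors' deposited table lists 1 as lower. That gene, the chaperonin subunit gene Cct6a, had 1180 ± 149 in Osmr-/- (SD, n = 5) and 2362 ± 497 in WT (SD, n = 6), without overlap, with a log2 difference of -0.98 and an adjusted p of 0.0656 by limma. Cct5 had -0.78 and the prefoldin subunit gene Pfdn4 had 1.23.

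Other heat-inducible HSF1 target genes had 4 members above 0 and 10 below, at a median log2 difference of -0.56, where 7104 of all 13358 genes lay below 0. Of the 14 tested 0 passed in limma, and 3 higher and 4 lower had an unadjusted p under 0.05. Slc5a3, an inositol transporter gene, had a log2 difference of 1.32 and is the 1 gene listed as higher in the authors' deposited table. The ubiquitin gene Ubb had -0.96 and the dioxygenase gene Jmjd6 had -1.10.

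Among the remaining lists, limma called 0 genes and the authors' deposited table listed 0 at an adjusted p under 0.05. An unadjusted p under 0.05 was reached by 1 of 3 other small heat shock protein genes, 0 of 5 other heat shock factor and regulator genes, 2 of 14 chaperones of the endoplasmic reticulum and mitochondria and 1 of 10 immediate early genes. Hspb11 had a log2 difference of 0.64. Hspb6 had 0.02 over all libraries, which was -1.30 among libraries 1 to 3 and 1.57 among libraries 4 to 6. Cryab had no read in 3 Osmr-/- and 2 WT libraries, and its log2 difference of -0.49 turned to 0.11 in the authors' deposited table. Hsbp1, which encodes a small binding partner of HSF1, had 0.49. Dedd2 had -1.82, with no read in 1 Osmr-/- library. Hsbp1l1 had -1.75, with no read in 4 Osmr-/- and 2 WT libraries. Both sizes rest on the 1 added, and the authors' deposited table has -0.66 for Dedd2 and -0.06 for Hsbp1l1. The mitochondrial exchange factor gene Grpel1 had -0.82, the endoplasmic reticulum co-chaperone gene Dnajc3 -0.59 and the mitochondrial protease gene Clpp -0.59.

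Immediate early genes, which like heat shock genes are known to respond to cell isolation, had a median log2 difference of -0.07, with 3 of 10 above 0. Ier2 had -0.87 and Dusp1 -0.84. Btg2 had no read in 3 Osmr-/- libraries, so the size of its log2 difference rests on the 1 added, at -2.97 here and -0.29 in the authors' deposited table. Chosen after its values were seen, Fos was at 0, 0, 64.4, 0 and 6.83 in Osmr-/- 1, 2, 3, 5 and 6. In WT 1 to 6 it was at 0, 0, 1.01, 0, 0 and 6.21. The part of cell isolation in the heat shock gene levels was not tested.

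**Figure D5:**
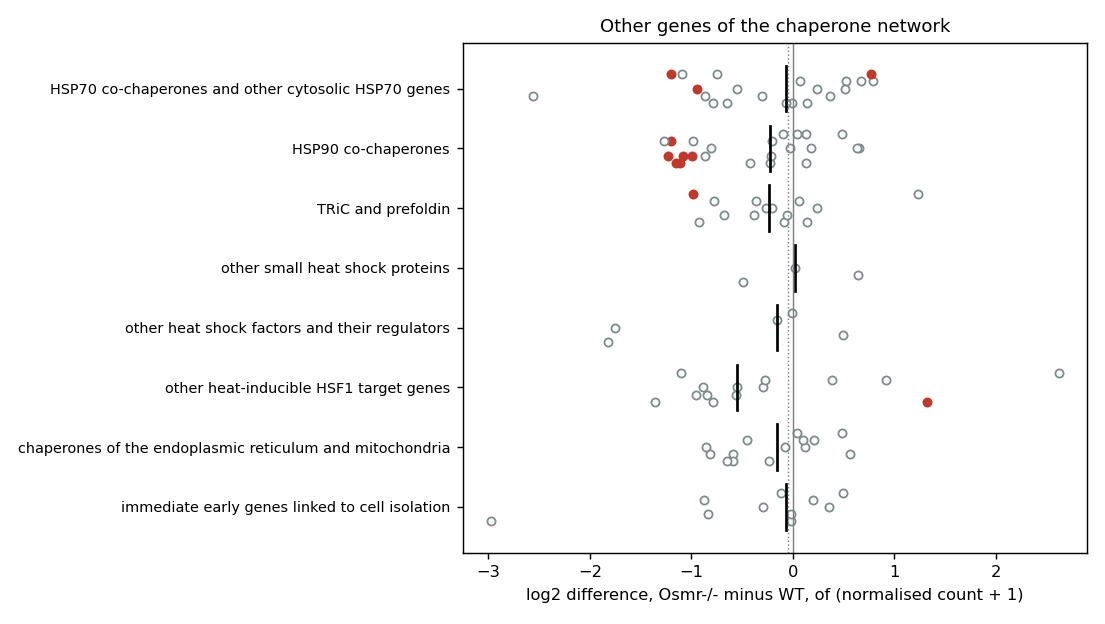
Log2 difference, Osmr-/- minus WT, of the normalised count with 1 added for the 104 tested genes of 8 lists; each point is a gene, red where the authors' deposited table has an adjusted p under 0.05, with vertical offsets for legibility only. Black lines are list medians and the dotted line is the median of all tested genes, -0.05; red points are 2 above 0 and 9 below.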

How the data were processed

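The submitters' processing notes name Trimmomatic 0.36.6, FastQC 0.72, HISAT2 2.1.0, HTSeq 0.9.1, the DESeq2 wrapper 2.11.40.6 and the build mm10. The sources used here give no annotation, strand setting or rule for multiply matching reads. The deposited signal is a gene count divided by a library's size factor. The authors also deposited regularised log2 values and a comparison table that holds, per gene, a log2 fold change, a Wald score and its standard error, a p-value and an adjusted p-value. Column meanings of that table were checked against the values. All 615 of its genes at an adjusted p under 0.05 have the sign of WT minus Osmr-/-, so its fold changes are printed with their sign turned.

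The members and gene lists were chosen with earlier results of these data known. Dividing each deposited signal by its library's smallest step gave whole reads for 100% of values, within 1.4e-09. Normalised counts with 1 added were compared on the log2 scale with limma 3.58.1 (genotype alone, mean-variance trend, R 4.3.3) for the 13358 genes with at least 10 in at least 5 libraries, adjusted by Benjamini-Hochberg. P-values measure the spread between these mice. The fit was tested on simulated data. Alternatives were pseudocounts of 0.5 and 10, no filter, a filter at 50, TMM scaling, regularised log2 values, count tests on those whole reads (edgeR 4.0.16, DESeq2 1.42.0), a block for label number, a covariate for number set, and each library left out. Positions and exon lengths are from GENCODE M21 on GRCm38, which is mm10, and promoter windows from RefSeq on GRCm38.p6. The genes named are the members, 3 of each list by lowest p, up to 4 per list called in the authors' table, and the 5 of most similar pattern.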

Additional observations from a re-analysis of the deposited data

Results flagged for a closer look

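For 35 genes, each genotype was searched for a library far from the others. Of 69 groups searched, 7 held such a value. Chance flags about 1 in 20 where values are normally distributed, and the rate for skewed counts with zeros was not computed. WT 5 did so for both inducible HSP70 genes, with 10.1 normalised counts of Hspa1a, where the other WT libraries had at most 1.68, and 14.1 of Hspa1b, where they had at most 3.88. Hspa4 had 1325 in WT 4 and at most 798 in the other WT libraries. Bag5 had 478 in Osmr-/- 1 and at most 240.0 in the others of its group, and Ahsa1 had 1108 in Osmr-/- 2 and at most 624. Nudc had 282 in Osmr-/- 6 and at least 654 in the others. Hsbp1l1 had 65.7 in Osmr-/- 3 and 0 in the other Osmr-/- libraries.

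The genotype difference of Hspa8 and that of Hsp90aa1 went opposite ways in the number sets, with every Osmr-/- library above every WT library in numbers 1 to 3 and below in numbers 4 to 6. The log2 differences of the sets lay 1.30 apart for Hspa8 and 0.85 apart for Hsp90aa1, and these gaps were not tested. The share of all genes with such an arrangement was not computed, and groups this small can separate by chance.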

How the results depend on the processing

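Over the whole table limma called 1 gene higher and 2 lower. These counts became 13 and 42 with a pseudocount of 10, 18 and 51 on regularised log2 values, 238 and 436 with DESeq2, 133 and 204 when number set was a covariate, and 0 and 0 with no filter, with a filter at 50 or with label number as a replicate block (2779, 2122 and 2418 genes at an unadjusted p under 0.05). A pseudocount of 0.5 and edgeR each gave 1 lower. Leaving out single libraries gave 0 to 34 higher and 0 to 91 lower, most without WT 6. Of the other chaperone genes, where limma called 0 and 0, DESeq2 called 2 higher and 9 lower, the number-set covariate 1 and 5, and a pseudocount of 10 and the regularised log2 values 1 lower each. Leaving out libraries gave 0 higher and 0 to 3 lower, the 3 without WT 6. The cause of these shifts was not tested. The stricter motif with 3 units was held by 1 member in place of 4.

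Same-numbered libraries of both genotypes correlated at 0.02 to 0.099 in their deviations, so the numbers were not taken as pairs. Of 176 alternative values of the members' log2 differences, 173 moved by less than the spread between libraries. Most of them leave out a single library, which can move a group's mean by only part of that group's SD. This count was therefore largely set in advance and is no measure of stability. The sign of Hspa1a held in all of its 12, and that of Hspa1b, Hsp90ab1, Hsph1 and Dnajb1 in all 19 of each. None of these settings took a number set alone. Among libraries 4 to 6 Hsph1 was at -0.42 and Hspa1a at -0.01, against 2.07 and 4.74 among libraries 1 to 3. Hspb1, with 0 reads in every Osmr-/- library, could not change sign. The sign of Hspa8, Hspa4, Hsp90aa1 and Hsf1, all near 0, turned in 1, 3, 5 and 6. Depth limits Hspa1a, Hspa1b and Hspb1, with at most 353 reads in a genotype.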
